A study of Mus musculus with 2 samples.

Results

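The 32 genes described here carry glucose from its uptake to lactate, or from pyruvate into the mitochondrion, and were followed by cell class in 4T1 mouse mammary tumours. They were fixed by gene symbol and taken from the 32285 genes listed in the deposited matrices; where a symbol occurred on more than 1 row, the row with the most unique molecular identifiers (UMIs, tags that each count 1 captured RNA molecule) was used. All 32 were found. The question was which of the related genes each kind of tumour cell used at each step, and whether their levels differed between the 2 tumour libraries of the study. The 4T1 line comes from a mouse mammary carcinoma and serves as a model of breast cancer without hormone receptors or HER2. Beta-elemene, a sesquiterpene found in plants, was the compound given. Mice had 4T1 cells placed in the mammary fat pad with Matrigel, and then received either 30 mg/kg beta-elemene or the same volume of normal saline by intraperitoneal injection each day. Tumours were taken after 18 days of treatment, and 1 droplet library was made per group. The saline group is called vehicle, as its label has it. The strain, sex and age of the mice, and how many tumours went into each library, are not given in the sources used here.

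Glycolysis splits 1 glucose into pyruvate through a chain of cytosolic enzymes. Several steps have a choice of related genes whose products differ in affinity, regulation or cell type. Pyruvate can be reduced to lactate and exported with a proton through monocarboxylate transporters, or it can enter mitochondria and be oxidised by pyruvate dehydrogenase. Many of these genes are known targets of hypoxia-inducible factor (HIF), and tumour cells and activated myeloid cells are known for strong glycolysis even where oxygen is present.

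The vehicle library held 11324 barcodes with 168750895 UMIs and the beta-elemene library 11539 barcodes with 157282740 UMIs. After filters 10465 and 10546 cells remained; 37 barcode sequences occurred in both libraries. The comparison used the 8 classes in which both libraries had 100 cells or more, named "X-like" from marker genes because the classes were rebuilt here: malignant-like (3919 vehicle and 3418 beta-elemene cells), neutrophil-like (1124 and 1775), macrophage-like (2736 and 2881), monocyte-like (721 and 758), T and NK-like (582 and 637), dendritic-like (163 and 177), fibroblast-like (658 and 644) and endothelial-like (190 and 192). Levels are given as CPM, the UMIs of a gene scaled to a class total of 1e6 UMIs, with vehicle first and beta-elemene second. At least 8 of each class's own markers stood at 10 CPM or more in the vehicle library. The malignant-like class was named from epithelial markers, which do not tell tumour cells from other epithelium, so it may hold both. The monocyte-like and macrophage-like classes shared markers. In monocyte-like cells the summed macrophage markers stood at 8957 and 9601 CPM, above the monocyte markers at 4111 and 4325 CPM. In macrophage-like cells the monocyte markers stood at 3625 and 2978 CPM. The dendritic-like class also held B cell transcripts, with a summed level of B and plasma cell markers of 777 CPM in vehicle and 304 CPM in beta-elemene. Median UMIs per cell ran from 1925.5 and 1983 in neutrophil-like cells to 21140 and 20705.5 in malignant-like cells. RNA released from other cells made up an estimated 3.28% to 16.3% of a class's UMIs, most in fibroblast-like and neutrophil-like cells. Clusters that stayed unnamed, and were left out, held 331 vehicle and 25 beta-elemene cells. With 1 library per group there is no test of treatment: all intervals below are 95% intervals for counting error only, and a difference between the libraries cannot be told apart from a difference between tumours or preparations.

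The libraries tag the 3' end of each molecule, so CPM was not divided by gene length; whether intron reads, which can add counts to long genes, were counted is not given in the sources used here. Together the 32 genes held the largest share of UMIs in neutrophil-like cells, 0.864% and 0.979%. Fibroblast-like cells followed with 0.732% and 0.829%, then macrophage-like cells with 0.705% and 0.751%. Malignant-like cells came after these with 0.569% and 0.631%, beside monocyte-like cells with 0.615% and 0.695%. Endothelial-like cells had the smallest share, 0.407% and 0.421%, near those of dendritic-like and of T and NK-like cells. The malignant-like cells were thus not the class with the largest share in either library. These shares are of UMIs summed over a class. By the median over cells, macrophage-like cells (0.626% and 0.644%) stood above fibroblast-like cells (0.538% and 0.601%).

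**Figure D1:**
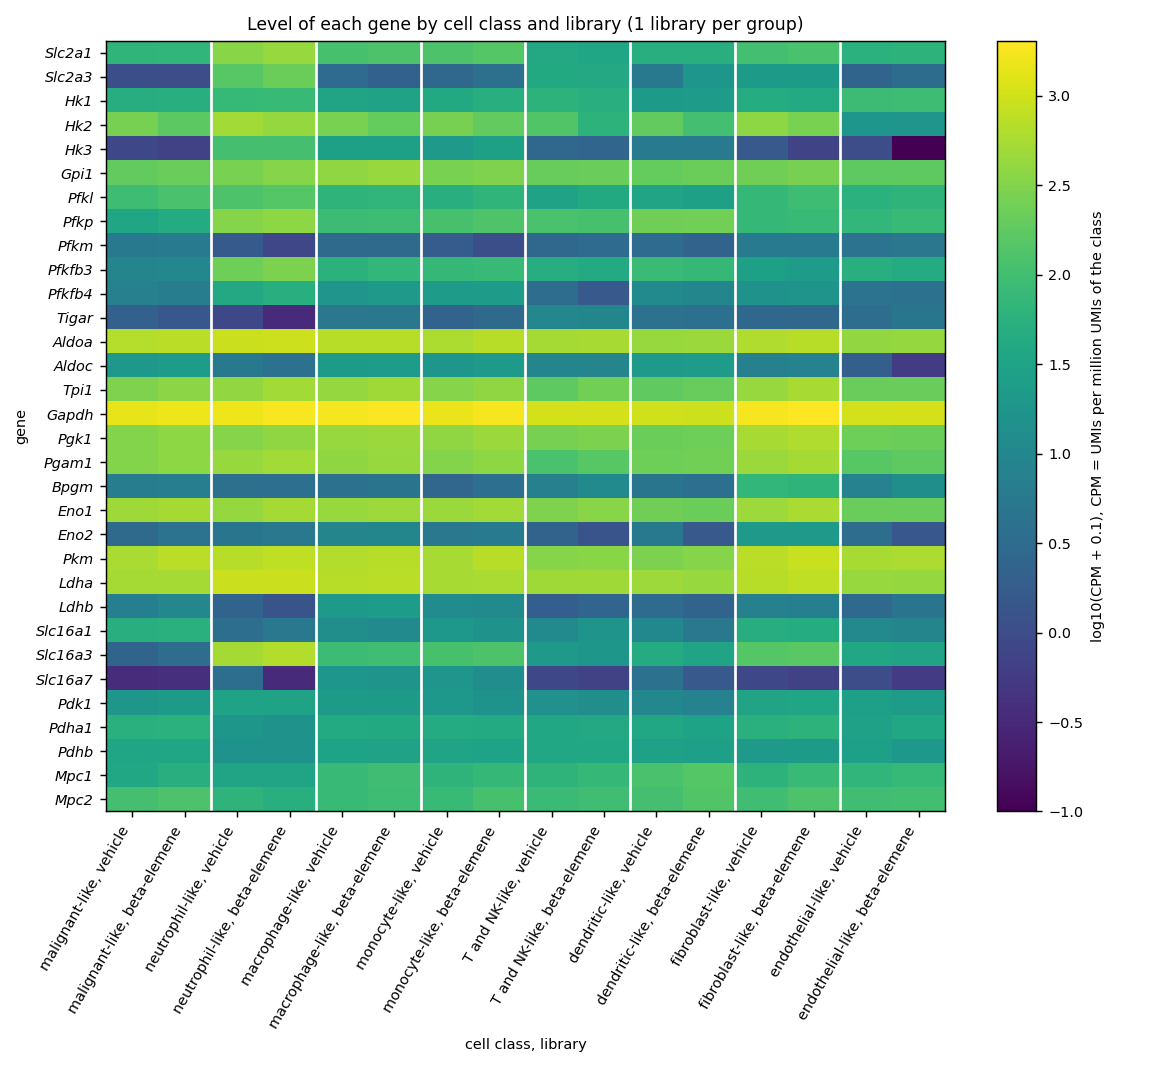
Level of each of the 32 genes (rows, in pathway order) in each cell class and library (columns, vehicle left of beta-elemene), as log10 of CPM plus 0.1. Columns of the same class look alike, whereas Slc2a3, Hk3, Pfkfb3, Slc16a1 and Slc16a3 differ strongly between classes.

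Glucose uptake was led by Slc2a1 (GLUT1, the widespread basal glucose transporter; chr4:119108711-119137983, mm10, plus strand). Its level was 352.5 and 441.8 CPM in neutrophil-like cells, against 126.9 and 148.8 CPM in the next class, monocyte-like cells. It stood at 64.8 and 69.7 CPM in malignant-like cells and was lowest in T and NK-like cells, at 40.1 and 36.0 CPM. Slc2a3 (GLUT3, a high-affinity transporter of neurons and leukocytes) was highest in neutrophil-like cells. It had 154.5 and 215.4 CPM there, 41.2 and 39.0 CPM in T and NK-like cells and 22.1 CPM in both libraries of fibroblast-like cells, but 0.974 and 0.938 CPM in malignant-like cells. Slc2a1 therefore made up 98.5% (95% interval 98.2% to 98.8%) and 98.7% (98.3% to 99.0%) of the 2 transporters' UMIs in malignant-like cells. In neutrophil-like cells its share was 69.5% (67.0% to 72.0%) and 67.2% (65.4% to 69.0%). In T and NK-like cells the pair was evenly split, with Slc2a1 at 49.3% (42.5% to 56.2%) and 48.0% (41.6% to 54.4%).

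Hexokinases trap glucose in the cell as glucose 6-phosphate. Hk2 (the inducible form bound to mitochondria; chr6:82725025-82774454, minus strand) was the most abundant hexokinase transcript in 7 of the 8 classes in both libraries. It was highest in neutrophil-like cells, at 517.8 and 416.1 CPM, and next in fibroblast-like cells, at 372.4 and 277.6 CPM. In endothelial-like cells Hk2 was at 18.5 and 17.8 CPM, of which free RNA would give 9.03 and 9.48 CPM. There Hk1, the form most tissues express, led with 88.8 and 92.6 CPM and 82.0% (76.4% to 86.8%) and 83.9% (78.6% to 88.3%) of hexokinase UMIs. Hk3, a hexokinase of myeloid cells, was at 111.0 and 109.6 CPM in neutrophil-like cells and 27.5 and 28.1 CPM in macrophage-like cells. In malignant-like cells Hk3 was at 0.769 and 0.568 CPM, near the 0.432 and 0.441 CPM that free RNA would give.

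Glucose-6-phosphate isomerase (Gpi1) ranged only 2.40-fold between the highest class and the lowest on the mean of both libraries, from 399.7 and 433.8 CPM in macrophage-like cells to 170.9 and 177.0 CPM in endothelial-like cells. At phosphofructokinase, the committed step, the classes used different genes. Pfkl (the liver-type subunit) made up 69.4% (68.6% to 70.2%) and 70.1% (69.3% to 70.9%) of phosphofructokinase UMIs in malignant-like cells. Pfkp (the platelet-type subunit) made up 72.1% in both libraries of neutrophil-like cells (69.5% to 74.6% and 70.2% to 74.0%) and 86.7% (82.7% to 90.1%) and 89.1% (85.5% to 92.1%) in dendritic-like cells. Fibroblast-like cells carried both subunits in nearly equal amounts, with Pfkl at 47.5% in vehicle and 52.4% in beta-elemene. Pfkm, the muscle-type subunit, did not exceed 4.09% in any class.

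Pfkfb3 and Pfkfb4 encode bifunctional enzymes that set the level of fructose 2,6-bisphosphate, the strongest activator of phosphofructokinase. Pfkfb3 was the more abundant of the pair in all 8 classes of both libraries. It reached 229.2 and 285.6 CPM in neutrophil-like cells, against 85.5 and 74.4 CPM in the next class, dendritic-like cells, and 9.13 and 9.64 CPM in malignant-like cells, the lowest class. The pair was most even in malignant-like cells, where Pfkfb3 held 54.8% (52.3% to 57.4%) and 59.3% (56.5% to 61.9%). Tigar, a phosphatase that lowers fructose 2,6-bisphosphate, was scarce throughout and highest in T and NK-like cells, at 9.73 and 9.46 CPM.

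**Figure D2:**
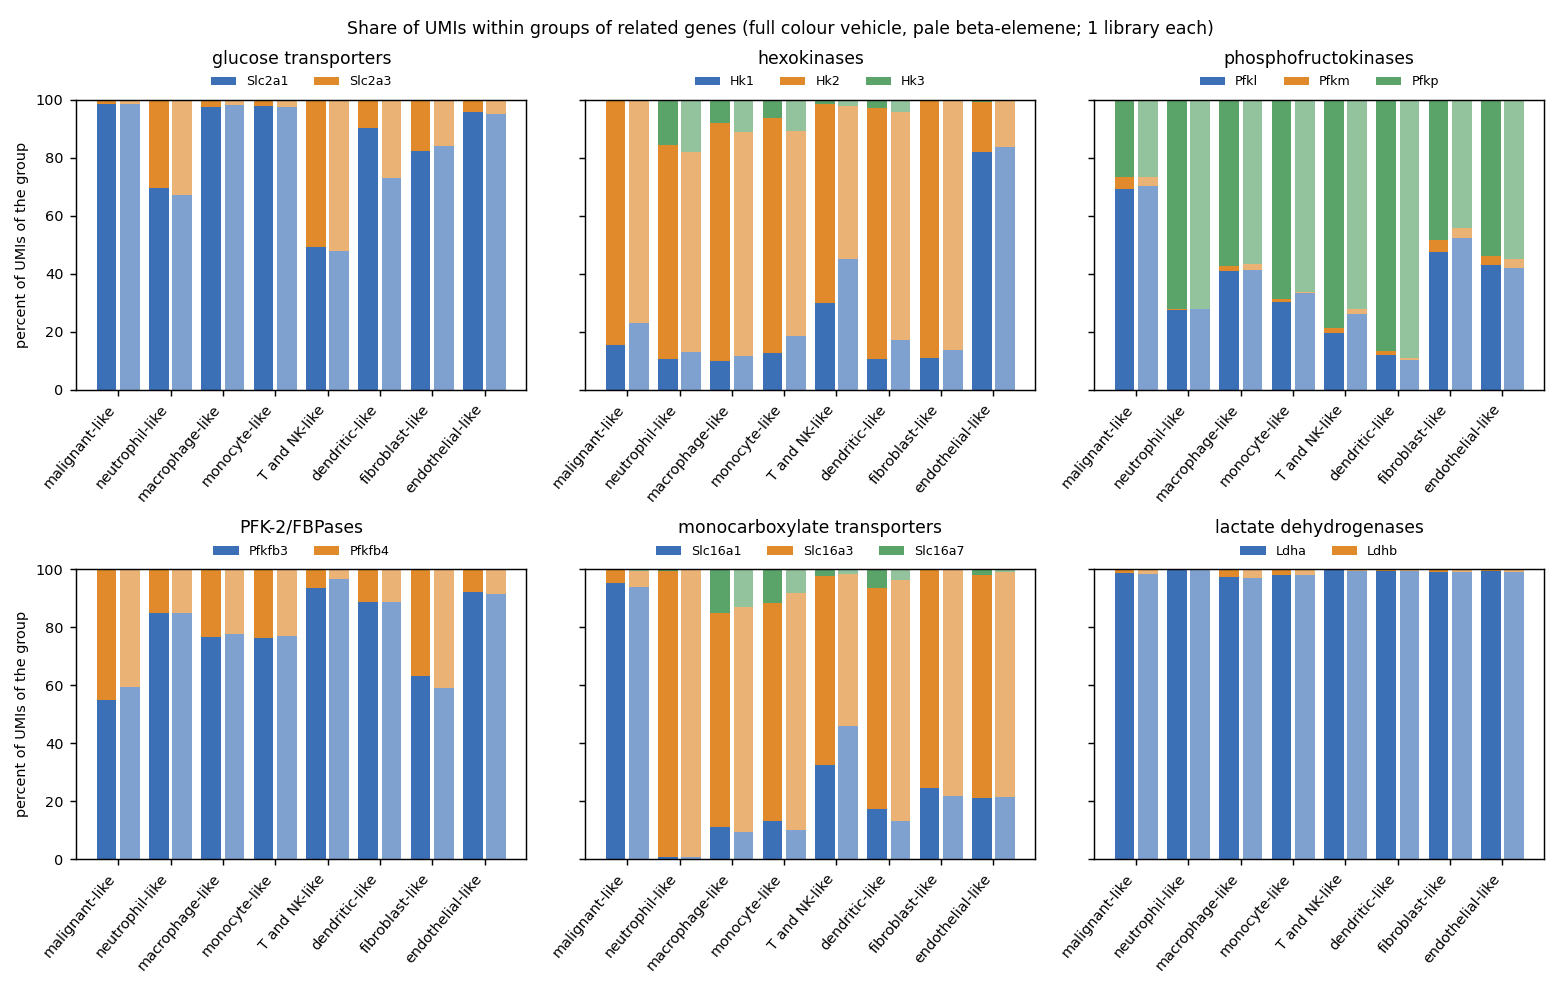
Share of UMIs taken by each gene of 6 groups of related genes (y axis, percent) in each cell class, with vehicle in full colour and beta-elemene paler. Malignant-like cells stand apart at the monocarboxylate transporters and phosphofructokinases, endothelial-like cells at the hexokinases, and T and NK-like cells at the glucose transporters.

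From aldolase to pyruvate kinase, the same members led in all classes. Aldoa made up at least 95.3% of the UMIs of Aldoa and Aldoc in every class and library. Eno1 made up at least 95.9% of those of Eno1 and Eno2. These shares count members only, so Eno3 and Eno1b are outside the enolase share. Eno3 was among the leading genes of the malignant-like cluster led by Lgals1 and Phlda2. Gapdh, which oxidises glyceraldehyde 3-phosphate, was the most abundant of the 32 genes in all 8 classes, from 1768 and 2037 CPM in fibroblast-like cells to 1005 and 968.8 CPM in dendritic-like cells. Pgk1, Pgam1, Tpi1 and Pkm, which carry triose phosphates to pyruvate, varied 2.56-fold to 3.65-fold between their highest and lowest class and were highest in fibroblast-like cells. The minor genes were more restricted. Bpgm, which makes 2,3-bisphosphoglycerate, was at 71.9 and 62.3 CPM in fibroblast-like cells but at 8.07 and 13.7 CPM in the next class. Eno2, the neuronal enolase, was also highest in fibroblast-like cells, at 20.2 and 21.2 CPM. The share of Eno1 is uncertain by the reads given to its near-copy Eno1b, which had 5934 UMIs over all barcodes against 157313 for Eno1.

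Lactate production had 1 main gene and lactate transport had several. Ldha, the form that favours lactate formation, made up at least 96.8% of the UMIs of Ldha and Ldhb in every class and library. Ldha was highest in neutrophil-like cells, at 916.6 and 924.7 CPM. Ldhb, the form that favours lactate use, was highest in macrophage-like cells, at 21.0 and 24.0 CPM. The monocarboxylate transporters differed strongly between classes. Slc16a1 (MCT1, which carries lactate in or out; chr3:104638668-104658462, plus strand) was at 51.3 and 54.2 CPM in malignant-like cells and made up 95.1% (94.5% to 95.7%) and 93.7% (93.0% to 94.4%) of the 3 transporters' UMIs. Slc16a3 (MCT4, a low-affinity lactate exporter; chr11:120948480-120960868, plus strand) was at 2.37 and 3.35 CPM there, while free RNA would give 2.27 and 2.59 CPM. In neutrophil-like cells the order was the opposite. Slc16a3 had 531.7 and 639.5 CPM and 98.7% (98.0% to 99.2%) and 99.2% (98.7% to 99.5%) of the UMIs, and Slc16a1 was at 3.47 and 5.14 CPM where free RNA would give 6.04 and 3.49 CPM.

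The same split was seen in single cells. Slc16a3 was detected in 54.8% and 61.0% of neutrophil-like cells, which had a median of 1925.5 and 1983 UMIs. It was detected in 4.87% and 5.68% of malignant-like cells, which were more than 10 times deeper. Cells with at least 1000 UMIs were also thinned to 1000 UMIs each. This left out 128 and 189 neutrophil-like cells and 81 and 98 malignant-like cells. Of the thinned cells, 37.0% and 42.1% of the neutrophil-like and 0.261% and 0.331% of the malignant-like kept a Slc16a3 UMI. Slc16a3 also led in the 6 other classes, with 73.9% and 77.7% in macrophage-like cells. In T and NK-like cells Slc16a3 held 65.2% (54.3% to 75.0%) in vehicle, where 1 cell gave 10 of its 58 UMIs, and 52.5% (43.2% to 61.7%) in beta-elemene, where the interval includes an even split. Slc16a7 (MCT2, a high-affinity lactate and pyruvate importer) was a macrophage-like and monocyte-like transcript, at 18.5 and 16.7 CPM and at 17.5 and 12.9 CPM. All 6 malignant-like clusters with at least 50 cells in each library had more Slc16a1 than Slc16a3. In 5 of them Slc16a3 was at 1.89 to 3.38 CPM; in the shallow cluster led by Lgals1 and Phlda2 it was at 3.34 and 10.6 CPM beside 18.9 and 20.4 CPM of Slc16a1.

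The genes of the pyruvate carrier were highest in another class than any of the lactate transporters. Mpc1 and Mpc2 form the mitochondrial pyruvate carrier and were both highest in dendritic-like cells, Mpc1 at 119.0 and 147.3 CPM and Mpc2 at 111.2 and 139.2 CPM. In malignant-like cells Mpc2 exceeded Mpc1, with 73.7% (72.9% to 74.4%) and 70.9% (70.1% to 71.6%) of the pair, although the carrier is a heterodimer. Neutrophil-like cells had the lowest level of both carrier genes and of both genes of the E1 subunits of pyruvate dehydrogenase. Pdha1 was at 18.9 and 15.7 CPM there against 54.5 and 56.6 CPM in malignant-like cells, and Pdhb was at 16.2 and 15.4 CPM against 35.9 and 34.2 CPM. Pdk1, the kinase that switches pyruvate dehydrogenase off, was at 30.8 and 30.6 CPM in neutrophil-like cells and 18.8 and 22.3 CPM in malignant-like cells. In neutrophil-like cells Pdk1 thus stood above Pdha1 in both libraries, and in malignant-like cells it stood below.

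The leading gene of a group was mostly the same in the 2 libraries. Over 8 groups of alternative genes and 8 classes, the gene with most UMIs was the same in vehicle and beta-elemene in 63 of 64 pairs of a group and a class. The exception was the near-even split of Pfkl and Pfkp in fibroblast-like cells, given above. In 2 further groups the genes encode partners in the same complex, Mpc1 with Mpc2 and Pdha1 with Pdhb, and the more abundant partner was the same in 15 of 16 pairs. It differed for the carrier in macrophage-like cells, where Mpc1 held 49.1% (47.7% to 50.4%) in vehicle and 50.7% (49.5% to 52.0%) in beta-elemene.

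Between the libraries a gene was counted as different where the CPM ratio of beta-elemene to vehicle was at least 1.5 or at most its inverse, its interval excluded 1, and both sums together held at least 50 UMIs. Of 256 pairs of a member and a class, 213 reached that depth. Of these, 3 were past 1.5-fold, all lower in beta-elemene and all the same gene, Hk2, in malignant-like, T and NK-like and dendritic-like cells. The other 31 genes passed in no class. In malignant-like cells that is 1 of 31 measured members, where 8.45% of all measured genes passed. It is 1 of 26 in T and NK-like cells, where 5.33% of genes passed, and 1 of 21 in dendritic-like cells, where 7.85% passed. None of 24 members passed in neutrophil-like cells (6.21% of genes), none of 32 in macrophage-like cells (3.87%), none of 28 in monocyte-like cells (4.47%), none of 30 in fibroblast-like cells (5.69%) and none of 21 in endothelial-like cells (5.64%). These shares do not set the members apart from genes at large.

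**Figure D3:**
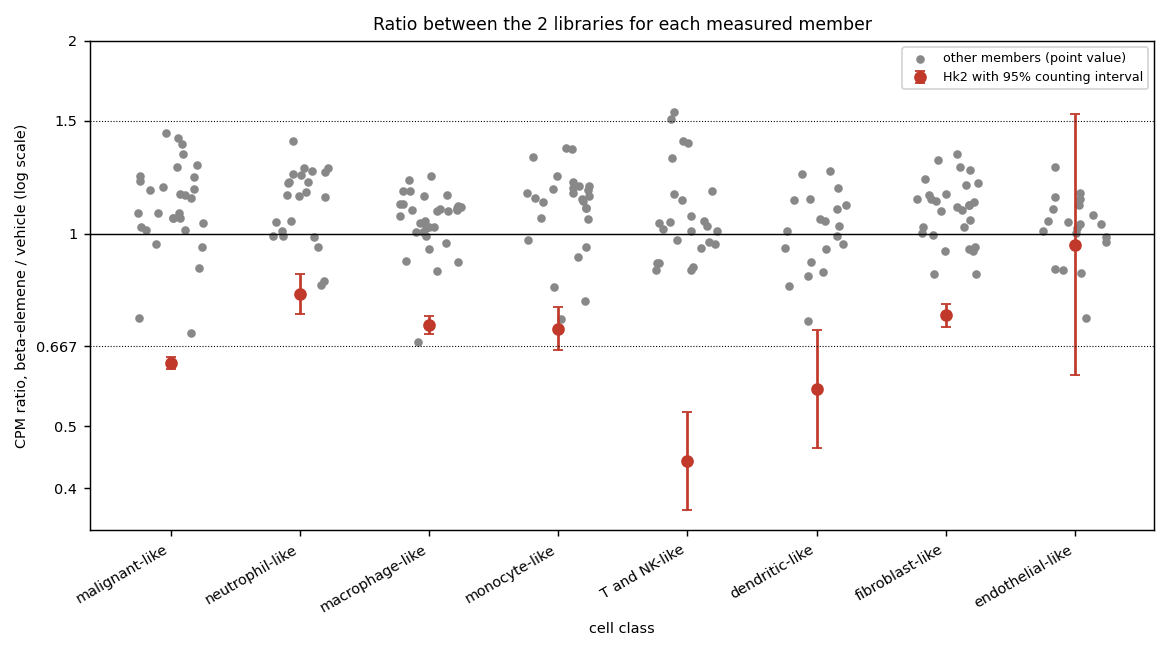
CPM ratio of beta-elemene to vehicle (log scale) of each member with at least 50 UMIs in a class; dotted lines mark 1.5-fold either way. Hk2 (red, with its 95% counting interval) lies below 1 in all 8 classes, and the other members lie between the dotted lines except Bpgm and Slc16a1 in T and NK-like cells, whose intervals include 1.

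Below the 1.5-fold limit, most members were slightly higher in beta-elemene. In malignant-like cells 25 of 31 measured members had a ratio above 1, as did 44.9% of all genes, and the members' median log2 ratio was 0.11 against -0.03 over all genes. The class was made up differently in the 2 libraries: the cluster led by Ccnd1 and Ankrd1 held 27.3% of its vehicle and 20.7% of its beta-elemene cells, the one led by Lcn2 and Cldn3 14.5% and 23.8%, and the one led by Lgals1 and Phlda2 3.65% and 7.46%. Within its 6 clusters of at least 50 cells in each library, the members' median log2 ratio ran from 0.06 to 0.24. In neutrophil-like cells it was 17 of 24 against 44.2% of genes, with medians of 0.20 and -0.04. In macrophage-like cells 24 of 32 were above 1, against 45.2% of genes, with medians of 0.10 and -0.02. Monocyte-like cells had 21 of 28 against 49.4%, with medians of 0.18 and 0.00, and fibroblast-like cells 22 of 30 against 56.7%, with medians of 0.14 and 0.04. The members lay closer to all genes in T and NK-like cells (16 of 26 against 47.3%, medians 0.03 and -0.02), dendritic-like cells (11 of 21 against 47.6%, medians 0.02 and -0.02) and endothelial-like cells (14 of 21 against 60%, medians 0.05 and 0.07). Genes of 1 pathway in 1 pair of libraries are not independent of each other.

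Gapdh, the member with the most UMIs in each class, illustrates the size of these differences. Its level was 1384 CPM in vehicle and 1587 CPM in beta-elemene in malignant-like cells, a ratio of 1.15 (1.14 to 1.16), and 1563 and 1872 CPM in neutrophil-like cells, a ratio of 1.20 (1.15 to 1.24). In dendritic-like cells the ratio was 0.964 (0.892 to 1.04) and in T and NK-like cells 1.01 (0.960 to 1.06). Of the 20 members measured in all 8 classes, Gpi1, Aldoa, Tpi1, Pgam1 and Pkm had ratios above 1 in all 8, as did 8.29% of the 4439 genes measured in all 8 classes. The 3 largest median ratios over classes were 1.21 for Pfkl, 1.20 for Mpc1 and 1.19 for Tpi1. Ldha, the last step to lactate, was nearly level, with a median ratio of 1.02.

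Hk2 stood apart from this pattern. In malignant-like cells it was at 263.2 CPM (259.9 to 266.5) in vehicle and 165.4 CPM (162.6 to 168.2) in beta-elemene, a ratio of 0.629 (0.615 to 0.642). It was 0.622 when the unnamed clusters closest to malignant were counted in. In T and NK-like cells it was at 138.1 CPM (124.4 to 153.0) and 61.0 CPM (52.8 to 70.1), a ratio of 0.442 (0.370 to 0.526). In dendritic-like cells it was at 186.6 CPM (163.7 to 211.8) and 106.8 CPM (90.1 to 125.7), a ratio of 0.572 (0.463 to 0.706). The intervals of the 2 libraries did not overlap in any of these 3 classes. Elsewhere Hk2 was lower by less than 1.5-fold, with ratios of 0.710 in monocyte-like (past 1.5-fold at other clustering resolutions, 0.638 at 0.5 and 0.610 at 2.0), 0.720 in macrophage-like, 0.745 in fibroblast-like and 0.804 in neutrophil-like cells, all with intervals below 1. In endothelial-like cells, where 1 cell held 9 of the 39 Hk2 UMIs in each library, the ratio was 0.961 (0.601 to 1.54). With doublets kept it was 0.638, past 1.5-fold. Over the settings described below, this ratio was not always below 1, and its highest value was infinite.

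A ratio below 1 in all 8 classes was shared by 6.53% of the genes measured in all 8. For Hk2 this holds in the main setting, but not in every setting for endothelial-like cells. By its median ratio over the classes, 0.715, Hk2 ranked 26 from the lowest among 4439 genes. It was also below 1 in each of the 18 clusters with at least 50 cells in both libraries, from 0.442 to 0.961, with the interval below 1 in 16 and a difference of 1.5-fold or more in 8. These clusters hold the same cells as the 8 classes and are no further replicates. The matching shares of all genes over the clusters are not given here. Among malignant-like clusters the vehicle and beta-elemene levels were 378.3 and 259.9 CPM in the cluster led by Csf3 and Msmp, 247.8 and 149.5 CPM in the cluster led by Lcn2 and Cldn3, and 173.3 and 103.5 CPM in the dividing, histone-led cluster. The cluster led by Ptn and Prlr, genes of mammary epithelium, had a smaller difference, 182.1 and 153.2 CPM. It held 10.2% of the malignant-like cells in vehicle and 8.81% in beta-elemene, and whether its cells are malignant was not tested. Hk2 was scarce in the shallow cluster led by Lgals1 and Phlda2, at 25.6 and 23.9 CPM.

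**Figure D4:**
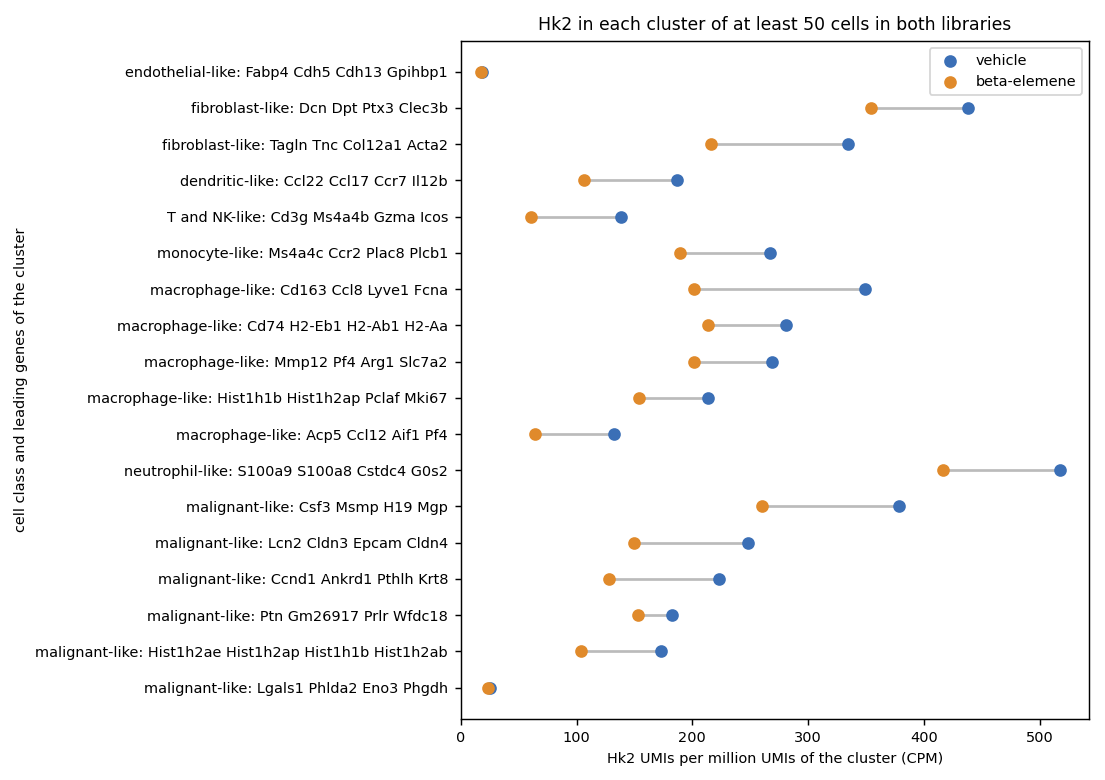
Hk2 level (x axis, CPM) in vehicle (blue) and beta-elemene (orange) in each cluster with at least 50 cells in both libraries, labelled by class and leading genes. The orange point lies left of the blue in all 18 clusters, and the gap nearly closes in the 2 clusters with the lowest Hk2.

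Single-cell detection of Hk2 gave the same order of the libraries. The share of malignant-like cells with a Hk2 UMI was 82.9% in vehicle and 73.3% in beta-elemene. It was 22.6% and 13.1% after thinning to 1000 UMIs, among cells with at least that many. In endothelial-like cells, the class with least Hk2, the shares were 9.47% and 9.38% at a median depth of 9470.5 and 8927 UMIs. In T and NK-like cells 1 vehicle cell held 30 of the 369 Hk2 UMIs, and without the highest cell of each library the ratio was 0.456. Hk1 held a larger share of hexokinase UMIs in beta-elemene: 15.6% (15.2% to 16%) and 23.1% (22.5% to 23.7%) in malignant-like cells, and 29.9% (26.0% to 33.9%) and 45.3% (40.2% to 50.4%) in T and NK-like cells. The ratio of Hk1 itself was 1.02 (0.980 to 1.07) and 0.876 (0.702 to 1.09). An antisense gene model, Gm17034, overlaps Hk2; it had 715 UMIs over all barcodes against 75854 for Hk2, and its ratio in malignant-like cells was 0.630 (0.514 to 0.769).

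The other genes of the pathway, a list of 42, passed 1.5-fold in shares that do not set them apart from genes at large. In malignant-like cells 2 of the 29 measured passed, where 8.45% of all measured genes did. They were Ldhc (a testis-type lactate dehydrogenase) and Gpd1 (glycerol 3-phosphate dehydrogenase), both lower in beta-elemene. Of 29 in macrophage-like cells 1 passed (3.87% of all genes), Gpd1, lower. Of 12 in neutrophil-like cells 1 passed (6.21% of all genes), Me2 (mitochondrial malic enzyme), lower. Of 12 in endothelial-like cells 1 passed (5.64% of all genes). It was Pdk3 (another pyruvate dehydrogenase kinase), higher in beta-elemene at a ratio of 1.92 (1.10 to 3.47) from 20 and 40 UMIs. None of 19 in monocyte-like (4.47% of all genes), 14 in T and NK-like (5.33%), 10 in dendritic-like (7.85%) or 23 in fibroblast-like cells (5.69%) passed.

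A list of 17 hypoxia genes outside the members was, like the members, slightly higher in beta-elemene in malignant-like cells. There 13 of 17 had a ratio above 1, against 44.9% of all genes, with a median log2 ratio of 0.12. Ankrd37, a HIF target, was the 1 of 17 past 1.5-fold in that class (8.45% of all genes), higher in beta-elemene at 1.52 (1.43 to 1.61). It was also the 1 of 14 that passed in monocyte-like cells (4.47% of all genes), at 1.81 (1.41 to 2.33). Egln3, a HIF prolyl hydroxylase, was the 1 of 13 that passed in T and NK-like cells (5.33% of all genes). It was lower, at 0.564 (0.404 to 0.781), beside the lower Hk2 there. Vegfa, a growth factor for blood vessels, was the 1 of 14 that passed in endothelial-like cells (5.64% of all genes), lower at 0.297 (0.162 to 0.520). These single genes do not set the list apart from genes at large in those 4 classes. No gene of the list passed in neutrophil-like (6.21% of all genes), macrophage-like (3.87%) or fibroblast-like cells (5.69%). In dendritic-like cells 4 of 11 hypoxia genes were past 1.5-fold, all lower in beta-elemene, where 7.85% of all genes passed either way. They were Vegfa, Ero1l, Ddit4 and Egln1, beside the lower Hk2. In the same class the summed malignant and epithelial markers were at 598.7 and 287.3 CPM, the mast cell and basophil markers at 495.3 and 265.9 CPM, the B cell markers as given above, and estimated free RNA at 8.65% and 3.62%; their part in that class's Hk2 value was not tested.

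Within each library many members were higher in malignant-like cells with Car9 than in those without. Car9 encodes carbonic anhydrase 9, a classical HIF target that is not a member. Cells with at least 2 Car9 UMIs (972 in vehicle, 926 in beta-elemene) were set against cells with none (2167 and 1881); 780 and 611 cells with exactly 1 UMI, at the cut, were left out. The split is a range on 1 gene and not a cell type. The 32 genes held 0.820% of UMIs in cells with Car9 and 0.436% in cells without in vehicle, and 0.898% and 0.452% in beta-elemene. In vehicle 15 of 31 measured members were at least 1.5-fold higher with Car9, against 2.58% of all genes, and 2 were at least 1.5-fold lower, against 6.33%. In beta-elemene 15 of 30 were higher, against 2.79%, and 1 was lower, against 5.64%. Ratios above 1 were found for 23 members in each library, against 44.3% and 46.2% of all genes, and the members' median log2 ratio was 0.47 and 0.66 where that of all genes was -0.03 and -0.02.

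The enzymes of the lower chain carried most of this difference. Pgk1 was at 574.9 CPM with Car9 and 197.3 without in vehicle, a ratio of 2.91 (2.84 to 2.99), and at 643.1 and 210.1 CPM in beta-elemene, a ratio of 3.06 (2.98 to 3.14). Aldoa had ratios of 2.39 (2.35 to 2.44) and 2.53 (2.49 to 2.58), and Ldha of 2.03 (1.99 to 2.07) and 2.15 (2.11 to 2.20). Eno2 had the largest ratios from the lowest level: 6.01 CPM with Car9 and 1.18 without in vehicle, a ratio of 5.07 (3.70 to 7.05), and a ratio of 6.87 (5.0 to 9.63) in beta-elemene. Pdk1, the brake on pyruvate oxidation, had ratios of 2.85 (2.55 to 3.18) and 2.19 (1.97 to 2.44). Slc2a1 had ratios of 1.81 and 2.27, and Pfkp of 2.24 and 2.61.

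Other members differed less with Car9, or were lower with it. Hk2 had ratios of 1.38 (1.35 to 1.42) and 1.45 (1.40 to 1.51), below 1.5-fold, and its vehicle level exceeded its beta-elemene level on both sides of the split: 314.6 and 202.4 CPM in cells with Car9, and 227.2 and 139.6 CPM in cells without. Slc16a1 was nearly level, at 1.08 (1.01 to 1.16) and 1.05 (0.986 to 1.13). Slc16a3, often named as the hypoxia-induced lactate exporter, was at 2.03 CPM with Car9 and 2.39 CPM without in vehicle, a ratio of 0.848 (0.602 to 1.18). In beta-elemene it was at 3.74 and 2.62 CPM, a ratio of 1.43 (1.07 to 1.90), where free RNA would give 2.59 CPM over the class. The genes of pyruvate entry were level or lower: Pdha1 had ratios of 1.05 and 0.971, Mpc1 of 0.988 and 0.939, and Mpc2 of 0.863 (0.824 to 0.904) and 0.817 (0.782 to 0.855). Bpgm was lower with Car9 in both libraries, at 0.665 (0.542 to 0.814) and 0.553 (0.451 to 0.676), while Slc2a3, near 1 CPM, had ratios of 0.405 (0.208 to 0.737) from 14 and 56 UMIs in vehicle and 1.25 (0.762 to 2.06) from 35 and 35 UMIs in beta-elemene. Cells with Car9 were deeper, with median UMIs of 24879.5 against 18399 in vehicle and 26401 against 17159 in beta-elemene. In cells with at least 10000 UMIs, where the medians were 25271 against 22481 and 26850 against 22144, 15 and 16 members were at least 1.5-fold higher; the added member was Slc16a3 in beta-elemene, at 1.60 (1.19 to 2.17).

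**Figure D5:**
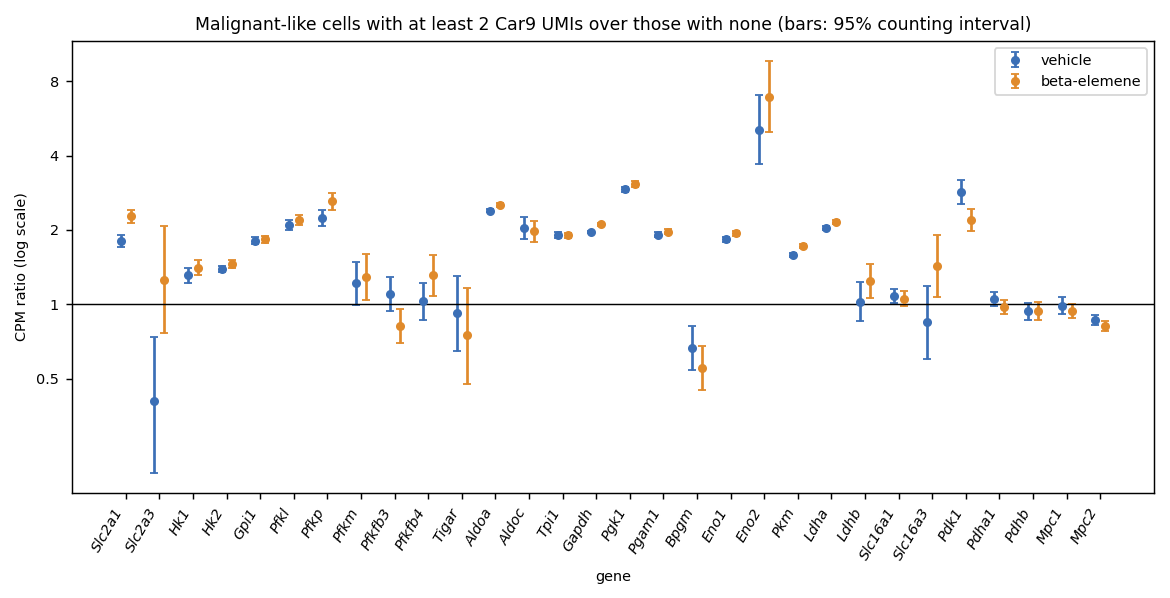
CPM ratio (log scale) of malignant-like cells with at least 2 Car9 UMIs to those with none for each member measured in both libraries, in pathway order; bars are 95% counting intervals. Most genes from Aldoa to Ldha, and Pdk1, lie between 1.5 and 3.1, with Eno2 above and Bpgm below 1, while Slc16a1, Pdha1, Pdhb, Mpc1 and Mpc2 lie near or below 1.

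The promoters of 4 of these genes are shown because the genes sit at entry, payoff, lactate formation and lactate transport, and differed unequally with Car9. Each is the 250 bases directly before the first transcript start listed by RefSeq (build GRCm38.p6, the assembly of mm10), printed 5' to 3' on the gene's strand. Capitals mark ACGTG, 1 form of the core of the HIF binding motif, on either strand. The form GCGTG was not searched and is not marked. On the other strand ACGTG reads CACGT, and the palindrome CACGTG, also known as the E-box of MYC and other factors, holds both. The windows are Hk2 at chr6:82774455-82774704 (minus strand), Pgk1 at chrX:106186850-106187099 (plus), Ldha at chr7:46845554-46845803 (plus) and Slc16a1 at chr3:104638414-104638663 (plus).
Hk2: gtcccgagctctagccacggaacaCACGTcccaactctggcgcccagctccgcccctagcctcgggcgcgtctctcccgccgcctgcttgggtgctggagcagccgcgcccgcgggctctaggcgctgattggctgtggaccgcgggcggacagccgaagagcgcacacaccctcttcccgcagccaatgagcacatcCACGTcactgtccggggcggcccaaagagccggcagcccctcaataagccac
Pgk1: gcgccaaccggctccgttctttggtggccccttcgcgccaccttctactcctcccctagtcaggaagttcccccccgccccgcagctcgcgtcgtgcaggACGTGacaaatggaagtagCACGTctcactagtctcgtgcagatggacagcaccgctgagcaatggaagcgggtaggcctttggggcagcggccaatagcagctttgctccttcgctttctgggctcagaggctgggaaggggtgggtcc
Ldha: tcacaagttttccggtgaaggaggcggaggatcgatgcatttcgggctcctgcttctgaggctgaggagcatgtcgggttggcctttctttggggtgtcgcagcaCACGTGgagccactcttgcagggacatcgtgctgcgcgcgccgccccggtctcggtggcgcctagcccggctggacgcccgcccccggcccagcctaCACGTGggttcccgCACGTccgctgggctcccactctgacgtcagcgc
Slc16a1: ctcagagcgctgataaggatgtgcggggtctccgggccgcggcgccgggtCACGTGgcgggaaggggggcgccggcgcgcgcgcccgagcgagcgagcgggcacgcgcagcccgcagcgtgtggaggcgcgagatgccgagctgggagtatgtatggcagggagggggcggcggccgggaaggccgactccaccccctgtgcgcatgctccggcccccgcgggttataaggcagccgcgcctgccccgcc
Counting both strands, the letters occurred 2 times in the Hk2 window, 2 times in Pgk1, 5 times in Ldha and 2 times in Slc16a1, where they form 1 palindrome. Pgk1 and Ldha, with ratios above 2 in both libraries, and Slc16a1, with ratios near 1, all held ACGTG. Among other members with ratios above 2 in both libraries, Aldoa held ACGTG at some of its starts, but Pfkl, Pfkp, Eno2 and Pdk1 held no ACGTG. Their windows were not searched for GCGTG. The motif was held by 13 of the 30 members with a window from RefSeq (43.3%), against 18.5% of all 27025 genes with such windows, counting any listed start. A gene with more listed starts has more windows in which to match, and the number of starts was not made equal. Aldoa and Pkm held ACGTG only at later starts. A match describes the letters only.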

How the data were processed

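Per the labels' protocols, tumours were dissociated enzymatically, red cells were lysed and libraries were made with a droplet kit that tags 3' ends. The deposited values are counts, as raw UMI counts per gene and barcode, written by Cell Ranger 7.1.0 per the file headers and aligned with STAR to mm10 per the submitters' processing notes. The annotation release and the counting of intron reads are not given in the sources used here.

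Barcodes with at least 200 genes and at most 20% mitochondrial UMIs were kept, and called doublets (3.13% in vehicle and 2.90% in beta-elemene) were removed. Both libraries were clustered together (Python 3.11.15, scanpy 1.11.5, leidenalg 0.10.2; 2000 variable genes, 30 principal components, 15 neighbours, resolution 1.0). Clusters were named from marker lists where at least 3 markers, and a fixed majority of the list, were found in 10% of cells; clusters without a clear class, or shallow ones with none of their markers among the leading genes, stayed unnamed. UMIs were summed per class and library. Ratios carry exact Poisson intervals and shares exact Clopper-Pearson intervals (scipy 1.17.1), all at 95% and for counting error only; the ratio code was tested on simulated data. Free RNA was estimated from keratin or C1q genes against the whole library's profile. The named genes are all 32 members, other pathway or hypoxia genes being named where past 1.5-fold. Members and lists were chosen with earlier results of these data known. Positions are from GENCODE vM21 and promoters from RefSeq.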

Additional observations from a re-analysis of the deposited data

How the results depend on the processing

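With 1 library per group, no setting gives a replicate check, and no paired analysis was possible because each group has 1 library and the labels carry no replicate numbers. Hk2 stayed at or below the 1.5-fold limit in all 17 settings in malignant-like cells (ratios 0.537 to 0.642), T and NK-like cells (0.388 to 0.499) and dendritic-like cells (0.414 to 0.636). The 17 include the main setting and the minima of 20 and 200 UMIs, which cannot change a ratio. The settings that alter only the malignant-like class also leave the ratios of T and NK-like and dendritic-like cells as they were. The count of 3 member and class pairs past 1.5-fold was 5 at clustering resolution 0.5, 5 with doublets kept, 5 with free RNA subtracted, 5 with a minimum of 20 UMIs, 8 with means over cells, and 10 with cells thinned to 1000 UMIs; it was 3 or 4 under the others. With thinned cells the 7 added pairs, of Pfkfb4, Pfkl, Mpc1, Mpc2, Tpi1 and Gpi1, were higher in beta-elemene. Slc16a3 in malignant-like cells, at the level of free RNA, had a ratio of 1.41 as counted, 1.74 with means over cells and 7.48 with free RNA subtracted. In monocyte-like cells Hk2 passed the limit at resolutions 0.5 and 2.0, and in endothelial-like cells with doublets kept. The members' median log2 ratio stayed above 0 in 6 classes under every setting run, from 0.11 to 0.19 in malignant-like cells; its lowest value was -0.04 in dendritic-like cells (resolution 0.5) and -0.01 in endothelial-like cells (scaling by the median gene).

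Of the recomputed isoform shares, 3444 stayed within their counting interval and 502 moved beyond it. The largest move was 16.4 percentage points, for Hk2 in vehicle T and NK-like cells when shares were averaged over single cells. The leading gene changed mainly for near-even pairs, Pdha1 and Pdhb or Slc2a1 and Slc2a3 in T and NK-like cells; Hk1 led Hk2 in beta-elemene T and NK-like cells with free RNA subtracted or with averaged shares. Leaving out malignant-like clusters with a median under 10000 UMIs, counting unnamed clusters closest to malignant as malignant-like, and limiting the Car9 comparison to deep cells were chosen after seeing the data. The classes of fewest cells, dendritic-like and endothelial-like, had 21 members deep enough to compare.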

Other observations

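Finer clustering (resolution 2.0) divided most of the neutrophil-like class into 2 clusters that differed in the members; since the clusters were made from the same cells, the values are a description. The cluster led by Ccl3 had 10 neutrophil markers, but none among its 10 leading genes, so that it would have stayed unnamed at that resolution. A cluster led by Ccl3 and Hcar2 (454 vehicle and 776 beta-elemene cells) had Hk2 at 1049 and 738 CPM, and a cluster led by G0s2 and Cxcr2 (652 and 980 cells) at 276.5 and 244.9 CPM. Hk3 was at 217.4 and 183.4 CPM against 50.9 and 64.1 CPM, Ldha at 1602 and 1449 CPM against 573.6 and 613.9 CPM, and Pfkfb3 at 404.7 and 439.5 CPM against 148.2 and 205.3 CPM. Slc16a3 went the other way, at 409.3 and 518.9 CPM in the cluster led by Ccl3 and 627.1 and 745.9 CPM in the cluster led by G0s2. Slc2a3 was also lower in the cluster led by Ccl3 in vehicle, at 130.6 CPM against 166.3 CPM, and near level in beta-elemene, at 210.1 and 217.8 CPM.

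Among fibroblast-like cells, the cluster led by Tagln and Tnc, genes of contractile fibroblasts, had Pgk1 at 760.1 and 898.8 CPM. The cluster led by Dcn and Dpt, with Clec3b and Pi16 also among its leading genes, had 210.6 and 286.2 CPM. In the same order of clusters, Bpgm was at 97.7 and 100.6 CPM against 27.7 and 14.6 CPM, and Slc2a3 at 34.1 and 36.9 CPM against 1.69 and 3.76 CPM. Hk2 and Slc16a1 were higher in the cluster led by Dcn: Hk2 at 437.6 and 354.0 CPM against 334.4 and 216.1 CPM, and Slc16a1 at 75.1 and 64.7 CPM against 33.1 and 30.4 CPM. Among macrophage-like clusters, the one led by Mmp12 and Arg1 had the highest Ldha, 851.9 and 935.6 CPM, and the one led by Cd163 and Lyve1 the highest Pfkfb3, 138.7 and 170.5 CPM.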
